A study of Mus musculus with 6 samples.

Results

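Mlh3 and 5 other genes of DNA mismatch repair (Msh3, Msh6, Pms1, Pms2 and Exo1) were followed in sorted mouse leukemia cells. They were taken as all probes that the platform annotation gives to these 6 gene symbols, 13 probes of the 45281 on the array. They are 6 of the 19057 genes with a probe of their own. Mlh3 was selected on its log2 difference between the 2 groups of arrays, already known to be large against its replicate spread, and the others for sharing its pathway, so every difference below describes these arrays and supports nothing by itself.

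RNA of 6 samples was measured, written here as 3 arrays labelled Klf4-deficient and 3 control arrays. All carried a NOTCH1-induced T cell acute lymphoblastic leukemia (T-ALL), and GFP-positive cells with both CD4 and CD8 were sorted from the marrow of male mice 4 weeks after transplantation. The titles call the groups KO and WT. The sources used here do not give the promoter or Cre behind the Klf4 deletion, the strain, the age or the number of animals per sample, so the spread between replicates may be technical.

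Mismatch repair corrects mispaired bases and small loops that DNA polymerases leave behind. MutS proteins find the error, with Msh6 in the complex for mispairs and short loops and Msh3 in the complex for longer loops. MutL proteins then act on the marked DNA, where Pms2 and Mlh3 are the subunits that nick a strand, and Exo1 is the exonuclease that removes the faulty stretch. Pms1 is a MutL homologue without an established nuclease role in mammals. Mlh3 also serves crossing over in meiosis together with Msh4 and Msh5, and mice that lack mismatch repair are prone to lymphomas, among them T cell lymphomas.

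The upstream sequences of 3 genes are shown because Klf4 belongs to a protein family that binds CACCC and GC boxes. Each run holds the 250 bases before the gene's RefSeq start on GRCm38.p6, 5′ to 3′ on the gene's strand, and capitals mark CACCC or GGGCGG on either strand. Mlh3 is shown because the report turns on it, Msh3 because its probes disagreed, and Msh6 because it was the brightly measured MutS gene whose groups overlapped. Mlh3 lies at chr12:85270600-85270849 (minus strand), Msh3 at chr13:92355004-92355253 (minus strand) and Msh6 at chr17:87974800-87975049 (plus strand).
Mlh3: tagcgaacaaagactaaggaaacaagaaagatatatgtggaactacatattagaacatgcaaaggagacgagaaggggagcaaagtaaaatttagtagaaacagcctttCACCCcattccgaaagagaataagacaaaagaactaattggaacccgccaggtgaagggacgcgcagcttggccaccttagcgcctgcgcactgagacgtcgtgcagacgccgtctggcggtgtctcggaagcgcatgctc
Msh3: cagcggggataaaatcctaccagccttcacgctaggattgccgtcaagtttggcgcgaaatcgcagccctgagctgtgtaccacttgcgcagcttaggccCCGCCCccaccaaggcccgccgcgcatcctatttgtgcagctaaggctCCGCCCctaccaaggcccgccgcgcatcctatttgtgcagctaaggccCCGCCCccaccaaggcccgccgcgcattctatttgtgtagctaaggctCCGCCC
Msh6: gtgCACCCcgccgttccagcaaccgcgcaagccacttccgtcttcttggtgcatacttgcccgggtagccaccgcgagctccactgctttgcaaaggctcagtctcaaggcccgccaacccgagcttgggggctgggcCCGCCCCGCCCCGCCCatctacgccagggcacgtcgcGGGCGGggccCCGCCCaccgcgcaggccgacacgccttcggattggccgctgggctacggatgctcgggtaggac
CACCC occurred 1 time in the Mlh3 window, 0 times in that of Msh3 and 1 time in that of Msh6, and 52% of 32851 windows of this length held it. GGGCGG occurred 0 times in the Mlh3 window, 4 times in that of Msh3 and 5 times in that of Msh6, against 32.7% of all windows with a match. Matches of both motifs shared 0 bases in these windows. The Mlh3 window had 48.8% G and C, the Msh3 window 62.8% and the Msh6 window 70.8%, and the mean of all windows was 53.2%. These are letters in a window, and binding was not measured.

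The mean probe signal of an array, on the deposited linear intensity scale, ran from 359 to 445, and was lowest in array 3 labelled Klf4-deficient. A probe counted as above background where its signal passed 3 SDs of the background of its array, a limit between 21.8 and 23.7. Across probes above background, pairs of arrays correlated at 0.975 to 0.994 (probes do not count as replicates here). The brightest Klf4 probe gave 80.6, 46.0 and 85.4 in arrays 1, 2 and 3 labelled Klf4-deficient, against 44.0, 18.4 and 24.6 in control arrays 1, 2 and 3. This goes against the label, although control array 2 was under the limit for this probe. Klf4 probes ILMN_1241903 and ILMN_1221264 were under the limit on all 6 arrays. Their log2 differences, labelled Klf4-deficient minus control, were -0.31 ± 0.15 and -0.02 ± 0.02 (SE). Where the probes lie relative to the deleted part is unknown, so every direction below rests on the labels. Of the 10 markers of double-positive T cells, 9 had a probe and 8 were above background on all 6 arrays, while the Cd8a probe averaged 21.5 in the arrays labelled Klf4-deficient and 30.8 in controls. Summed signals of these markers were 61039, 61851 and 54736 in arrays 1, 2 and 3 labelled Klf4-deficient, against 68209, 64447 and 68245 in control arrays 1, 2 and 3. The 6 measured erythroid markers summed to 3776, 8341 and 15308 in the arrays labelled Klf4-deficient and to between 1769 and 4001 in controls. The 9 measured monocyte and macrophage markers summed to 4686, 5165 and 11574 in the arrays labelled Klf4-deficient and to between 3863 and 5141 in controls. Lyz2 made up most of these sums, with 3551.5, 3130.2 and 9308 in arrays 1, 2 and 3 labelled Klf4-deficient. All 9 markers had a log2 difference above 0 (median 0.94), and 0 were called in limma. For 5 of them the groups did not overlap, higher in the arrays labelled Klf4-deficient, beside 4.5% of all probes. Of the same marker lists, 4 erythroid and 8 monocyte and macrophage genes were above background on all 6 arrays. The 9 measured neutrophil markers, 8 of them above background on all arrays, summed to 66036, 71147 and 113892 in the arrays labelled Klf4-deficient and to between 66070 and 89471 in controls. The 7 measured NK cell markers, 3 of them above background on all arrays, summed to between 2507 and 3316 in the arrays labelled Klf4-deficient and to between 2060 and 3022 in controls. Prf1, with overlapping groups, gave between 1379 and 1675 of the sums in the arrays labelled Klf4-deficient. Nkg7, Ccl5 and Klrd1 (under the limit in controls) were higher there without overlap, beside the same 4.5% of all probes. Of the 7, 3 lay above 0 and 3 below. The 6 measured B lineage markers, 3 of them above background on all arrays, summed to between 571 and 810 in the arrays labelled Klf4-deficient and to between 678 and 887 in controls.

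Of the 13 mismatch repair probes, 6 were above background on all 6 arrays, 1 on 5 arrays and 6 on 0 arrays. The probes above background on all arrays belonged to Mlh3 (1 of 3 probes), Msh3 (2 of 3), Msh6 (2 of 2) and Pms2 (1 of 1). The single Pms1 probe and all 3 Exo1 probes stayed under the limit on every array, as did 2 Mlh3 probes, with signals between -11.5 and 20.4. For Pms1 and Exo1 there is therefore no difference to report.

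Mlh3, the MutL subunit that meiotic crossing over needs, was lower in all 3 arrays labelled Klf4-deficient than in any control array. Its measured probe, ILMN_2971204, gave signals of 199.8, 196.7 and 173.6 in arrays 1, 2 and 3 labelled Klf4-deficient, against 287.7, 260.0 and 272.7 in control arrays 1, 2 and 3. The means were 190 ± 14.3 and 273 ± 13.9 (SD, n = 3 each), and the groups did not overlap. After quantile normalization the log2 values were 7.75, 7.69 and 7.73 in the arrays labelled Klf4-deficient and 8.13, 8.14 and 8.11 in controls. Normalization narrowed the spread within each group, to SDs of 0.029 and 0.018 on the log2 scale. The log2 difference, labelled Klf4-deficient minus control, was -0.40 ± 0.025 (SE), which is 0.757-fold.

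**Figure D1:**
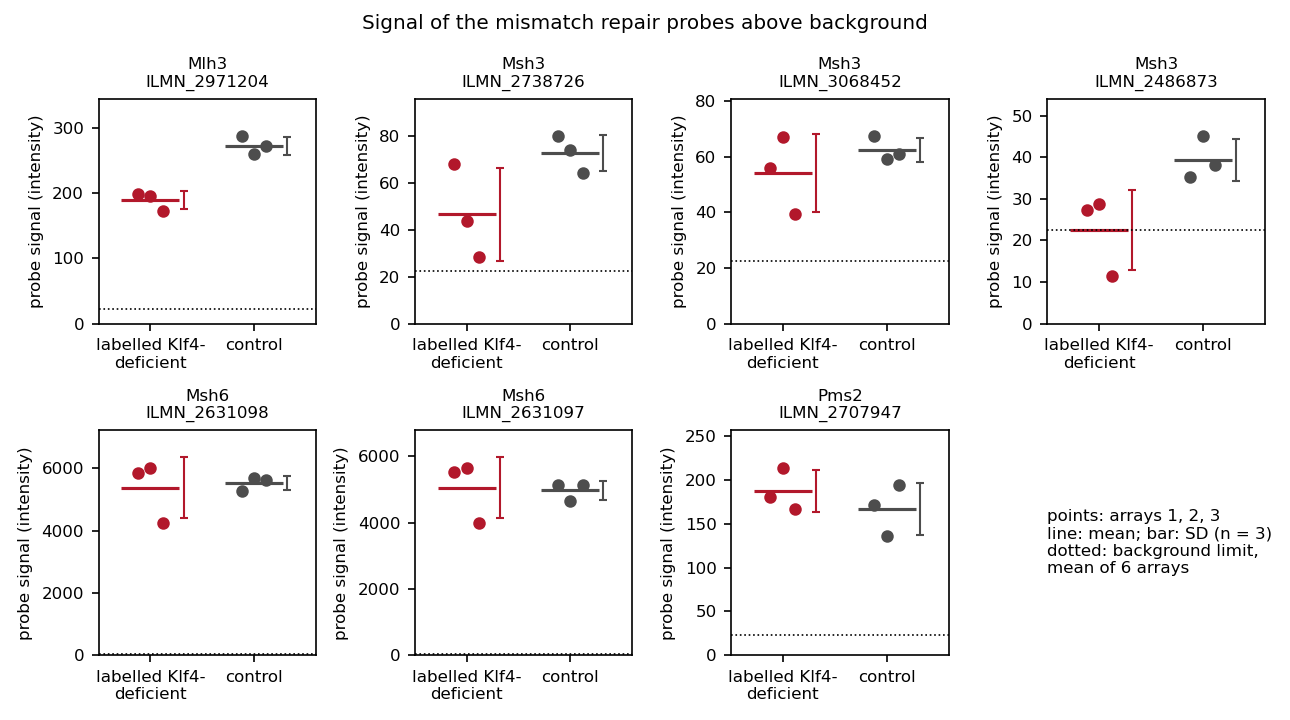
Deposited signal (linear intensity) of the 7 mismatch repair probes that passed the background limit throughout at least 1 group, with 1 panel per probe and its own axis from 0; arrays labelled Klf4-deficient are left of controls, points are arrays 1, 2 and 3, lines are means and bars SDs (n = 3). The Mlh3 points of the arrays labelled Klf4-deficient (173.6 to 199.8) lie below all control points (260.0 to 287.7), whereas the points of both Msh6 probes and of Pms2 overlap.

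The Mlh3 difference was moderate in size and, after quantile normalization, small in replicate spread. Among the 12852 probes above background on all 6 arrays, 288 (2.24%) were at least as low in the arrays labelled Klf4-deficient. Of the 12852, 83 (0.646%) had an SE as small, against a median SE of 0.112. With every probe in the fit, the 95% confidence interval of the Mlh3 difference was -0.47 to -0.34, and with the 14415 brighter probes alone it was -0.61 to -0.19. The SE was 0.091 in that second fit, in which dim probes no longer entered the pooled estimate of the variance (prior degrees of freedom 3.96 with the brighter probes, 0.692 with every probe). Neither interval takes account of the choice of Mlh3 for its values.

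Mlh3 did not pass the threshold over the whole table (adjusted p = 0.171 from limma over 34885 probes). Of the 13 member probes, 0 passed at an adjusted p of 0.05 in limma, where 0.00287% of all probes did, and 1 (Mlh3) had an unadjusted p under 0.05. At that unadjusted level 963 of all 34885 probes were higher and 1227 were lower. Non-overlapping groups with the arrays labelled Klf4-deficient lower were seen for 2 of the 13 probes, beside 5.39% of all probes, and with them higher for 0, beside 4.5%. Of the 6 member probes above background on all 6 arrays these numbers were 1, beside 9.94% of all such probes, and 0, beside 6.87%. Since Mlh3 was chosen for this contrast, nothing is read from these shares. The median log2 difference of the 6 probes was -0.04, with 3 above and 3 below 0, and that of all 12852 probes above background was -0.02.

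The Mlh3 difference was of similar size in each array. Relative to the control mean, the Mlh3 log2 values were -0.38, -0.44 and -0.39 in arrays 1, 2 and 3 labelled Klf4-deficient and between -0.02 and 0.01 in controls. On the same scale the erythroid markers had medians of 0.35, 1.46 and 2.51 in arrays 1, 2 and 3 labelled Klf4-deficient, and the monocyte and macrophage markers 0.29, 1.08 and 1.55. Their part in the Mlh3 difference was not tested. The double-positive T cell markers had medians of -0.17, -0.06 and -0.03 in the same 3 arrays and between -0.06 and 0.04 in controls. In sorted bulk samples, fewer cells of a type and less RNA per cell cannot be told apart.

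**Figure D2:**
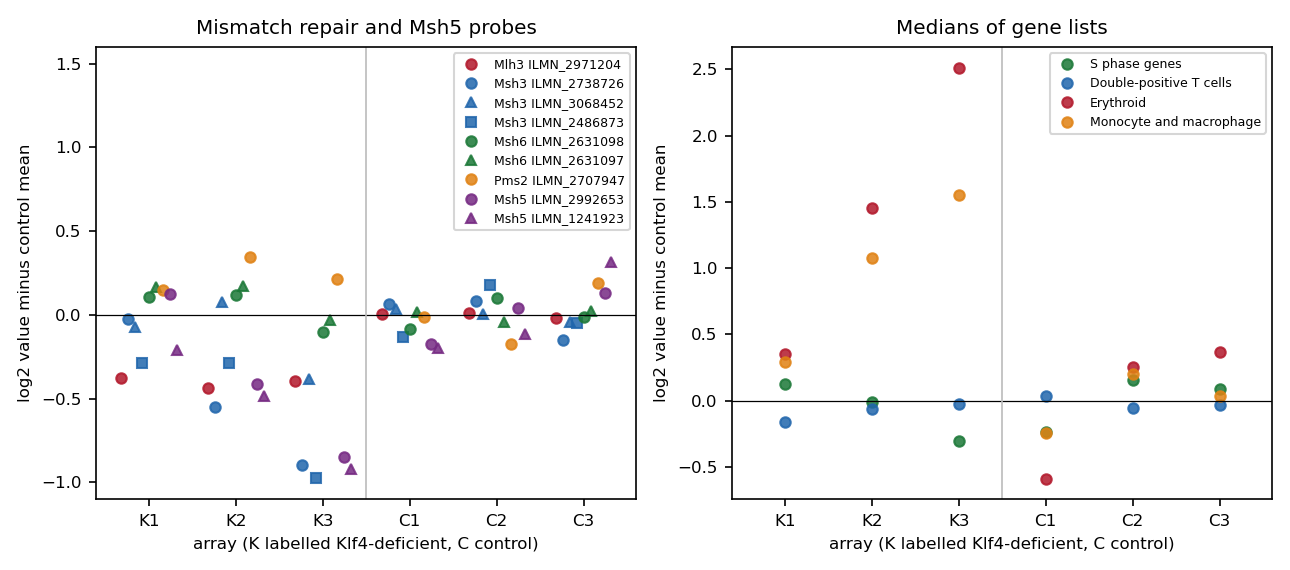
Log2 values relative to the control mean on each array (K1 to K3 labelled Klf4-deficient, C1 to C3 control) for the mismatch repair and Msh5 probes above background (left) and for the medians of 4 gene lists (right). Mlh3 lies between -0.44 and -0.38 in K1 to K3, while in K3, the array with the highest erythroid median (2.51), the 3 Msh3 probes lie between -0.97 and -0.39 and the 2 Msh5 probes drawn at -0.85 and -0.92.

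Msh3, the MutS subunit for larger loops, had 3 probes that disagreed in size. Probe ILMN_2738726 gave 67.8, 43.5 and 28.2 in arrays 1, 2 and 3 labelled Klf4-deficient, against 79.8, 73.8 and 64.3 in controls. Its highest value in the arrays labelled Klf4-deficient lay within the control range, and its log2 difference was -0.49 ± 0.25 (SE). Probe ILMN_3068452 gave 55.9, 67.0 and 39.4 in the arrays labelled Klf4-deficient, against 67.3, 59.2 and 61.0 in controls, and its groups overlapped. This probe differed by -0.13 ± 0.14. The third probe, ILMN_2486873, which the annotation ties to a cDNA clone, gave 27.3, 28.8 and 11.5 in the arrays labelled Klf4-deficient, against 35.2, 45.0 and 38.0 in controls. Its groups did not overlap, but array 3 was under the background limit, so it is counted as measured only through the controls, and its difference of -0.52 ± 0.25 is given for completeness.

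All 3 Msh3 probes were lowest in array 3 labelled Klf4-deficient. Relative to the control mean, array 3 lay at -0.90, -0.39 and -0.97 for probes ILMN_2738726, ILMN_3068452 and ILMN_2486873, and array 1 at -0.02, -0.07 and -0.29. Array 3 also had the lowest mean signal and the highest erythroid, monocyte and macrophage, and neutrophil (1.11) medians. The NK cell median was highest there too (0.87), but only 3 of the 7 NK markers were above background on all arrays. Summed NK signal was instead highest in array 2 labelled Klf4-deficient (3316, against 3295 in array 3). The part of all these in the Msh3 values was not tested. Without array 3 the differences were -0.29, 0.003 and -0.29 in that order of probes. Whether Msh3 differs between the groups is thus not settled by its probes, whose 95% intervals were -1.15 to 0.17, -0.49 to 0.24 and -1.17 to 0.14.

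Msh6, the MutS subunit that finds mispairs, gave strong signals on both of its probes and overlapping groups. Probe ILMN_2631098 gave 5864, 6015 and 4251 in arrays 1, 2 and 3 labelled Klf4-deficient, against 5259, 5700 and 5616 in controls. Probe ILMN_2631097 gave 5518, 5654 and 3997 in the arrays labelled Klf4-deficient, against 5131, 4653 and 5151 in controls. On both probes, array 3 labelled Klf4-deficient was the lowest of all 6 arrays and arrays 1 and 2 labelled Klf4-deficient were above every control. After normalization the log2 differences were 0.04 ± 0.08 (95% interval -0.18 to 0.26) for ILMN_2631098 and 0.10 ± 0.07 (-0.07 to 0.28) for ILMN_2631097. With no normalization between arrays the differences were -0.06 ± 0.16 and 0.007 ± 0.16 (SE) in that order of probes. Mlh3 was chosen for its difference, so no contrast between Msh6 and Mlh3 is drawn, and none was tested.

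Pms2, the MutL subunit that nicks DNA in mismatch repair, had values on the other side of 0 from Mlh3. Its probe gave 181.1, 214.0 and 167.2 in arrays 1, 2 and 3 labelled Klf4-deficient, against 172.0, 135.7 and 194.5 in controls. The groups overlapped, with control array 3 above 2 of the arrays labelled Klf4-deficient. The log2 difference was 0.24 ± 0.11 (SE), with a 95% interval of -0.06 to 0.53. Aimp2, whose start lies 162 bases from that of Pms2 on the opposite strand, differed by 0.13 ± 0.08 (chosen after its values were seen). The same search, within 1000 bases of a member's start, also found Ormdl1, 67 bases from Pms1. The Ormdl1 probe was under the limit on every array.

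**Figure D3:**
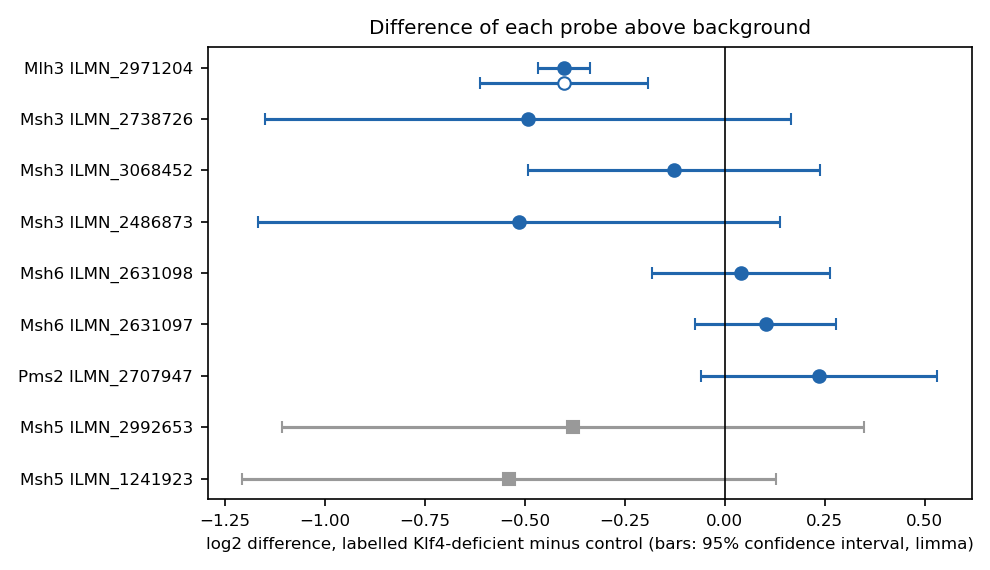
Log2 difference, labelled Klf4-deficient minus control, with its 95% confidence interval from limma for each member probe (blue circles) and Msh5 probe (grey squares) that passed the background limit throughout at least 1 group; the open circle is Mlh3 with the brighter probes alone in the fit. Mlh3 stands at -0.40, the Msh3 and Msh5 intervals reach across 0, and Msh6 and Pms2 lie between 0.04 and 0.24.

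Both MutS homologues of meiosis had probes, Msh4 and Msh5. The Msh4 probe was under the limit on all 6 arrays. Of 4 Msh5 probes, 2 were under the limit on all arrays. ILMN_2992653 gave 86.8, 57.6 and 34.4 in arrays 1, 2 and 3 labelled Klf4-deficient, against 73.8, 81.3 and 93.1 in controls, with overlapping groups and a log2 difference of -0.38 ± 0.28. ILMN_1241923 gave 42.6, 33.8 and 19.4 in the arrays labelled Klf4-deficient, against 46.4, 46.7 and 72.2 in controls, with a difference of -0.54 ± 0.25. Its groups did not overlap, but array 3 labelled Klf4-deficient was under the limit. Like Msh3, both Msh5 probes were lowest in array 3 labelled Klf4-deficient, at -0.85 and -0.92 from the control mean. In array 1 labelled Klf4-deficient, ILMN_2992653 stood within the control range at 0.12. There ILMN_1241923 stood at -0.21, just below the lowest control (-0.20).

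Genes for the proteins that work beside the mismatch repair complexes showed no called change in RNA. The list held the sliding clamp Pcna, its loader, the RPA complex, DNA polymerase delta, DNA ligase 1 and related genes. All 20 had a probe, 18 above background on all arrays, and the median log2 difference was -0.08, with 6 above and 14 below 0, beside a median of 0 over all 19057 genes and of -0.01 over the 8360 above background. In the fit with 1 probe per gene, 0 of the 20 passed in limma (0.0105% of all genes did), and 0 had an unadjusted p under 0.05, beside 3.49% of all genes higher and 4.1% lower. Rpa1, the large subunit of the protein that coats single-stranded DNA, averaged 9908 in the arrays labelled Klf4-deficient and 11670 in controls (log2 -0.14 ± 0.06 SE). Rfc4, a subunit of the clamp loader, differed by 0.24 ± 0.10, and Fan1, a nuclease, by -0.23 ± 0.15. The Hmgb1 probe was under the limit on every array. This list lay at 0.05, -0.06 and -0.22 in arrays 1, 2 and 3 labelled Klf4-deficient and at -0.15, 0.09 and 0.05 in control arrays 1, 2 and 3.

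Genes of S phase, when mismatch repair is most needed, had a similar order among arrays. Over the 24 with a probe, the median log2 difference was -0.06, 8 lay above 0, 15 below and 1 at 0, and 0 passed in limma or had an unadjusted p under 0.05. They lay at 0.13, -0.01 and -0.30 in arrays 1, 2 and 3 labelled Klf4-deficient and at -0.24, 0.15 and 0.08 in control arrays 1, 2 and 3. Mcm3, part of the replicative helicase, differed by -0.23 ± 0.20 and Gins1, which joins that helicase, by -0.28 ± 0.25. The probes of Prim1 and Pola1, of the primase complex, were under the limit on every array. The Mlh3 log2 values in array 1 labelled Klf4-deficient and in control array 1 were -0.38 and 0.01 from the control mean. A part of S phase in the Mlh3 difference was not tested.

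Of 13 meiotic crossover genes, 10 had a probe and 3 were above background on all arrays, with 0 called in limma and 0 at an unadjusted p under 0.05. The genes named by the smallest p were Msh5, Spo11, Hfm1 and Sycp1, and the last 2 were under the limit on every array. Spo11, the enzyme that starts meiotic recombination, averaged 5843 in the arrays labelled Klf4-deficient and 7186 in controls (log2 -0.20 ± 0.15 SE). Its groups overlapped.

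Other repair pathways had members with differences as large as that of Mlh3, none of them called. In base excision repair, which removes damaged single bases, 20 of 21 genes had a probe, the median was -0.07, 0 passed in limma, and an unadjusted p under 0.05 was reached by 3 lower and 0 higher genes. Over all 19057 genes, 0.0105% passed in limma, and 4.1% lower and 3.49% higher genes reached that unadjusted p. Neil1, a DNA glycosylase for oxidised bases, gave 222.6, 255.1 and 179.6 in arrays 1, 2 and 3 labelled Klf4-deficient, against 307.2, 329.7 and 326.2 in controls (log2 -0.45 ± 0.09 SE). Smug1, a uracil DNA glycosylase, gave 299.8, 376.1 and 317.0 in the arrays labelled Klf4-deficient, against 592.2, 438.3 and 445.8 in controls (-0.44 ± 0.14). In both genes the groups did not overlap, and the adjusted p from limma was 0.432 for Neil1 and 0.565 for Smug1. Parp2, which responds to strand breaks, differed by -0.08 ± 0.03, and the probe of Aptx, one of the 3 lower genes, was under the limit on all arrays.

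In nucleotide excision repair, which cuts out bulky lesions, 18 of 20 genes had a probe and the median was -0.08. Of these 0 passed in limma, while an unadjusted p under 0.05 was reached by 3 higher and 4 lower genes, beside 3.49% and 4.1% over all genes. Gtf2h3 and Ercc3, subunits of the transcription and repair factor TFIIH, differed by -0.17 ± 0.02 (SE) and -0.21 ± 0.05. Ercc2, the other TFIIH helicase, differed by 0.18 ± 0.03, and Xpa, which verifies the damage, by -0.25 ± 0.06. The other listed TFIIH genes with a probe lay between -0.25 and -0.11, so among them only Ercc2 stood above 0. Its deposited signals overlapped, at 492.8, 476.8 and 416.0 in the arrays labelled Klf4-deficient against 461.5, 401.9 and 451.0 in controls.

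**Figure D4:**
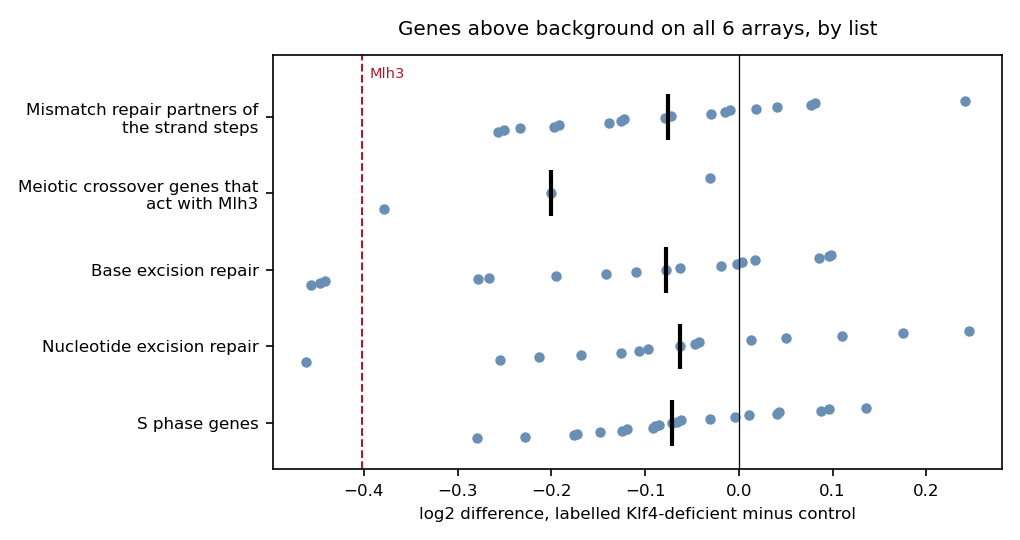
Log2 difference, labelled Klf4-deficient minus control, of each gene above background on all 6 arrays in 5 gene lists (points, spread vertically for legibility), with the median of each list as a black bar and Mlh3 as the dashed red line at -0.40. Points of base excision and nucleotide excision repair reach below the value of Mlh3, while those of the strand steps of mismatch repair and of S phase stay closer to 0.

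The genes around Mlh3 on chromosome 12 lay on both sides of 0. Over the 5 nearest genes above background on each side, the median log2 difference was 0.07 and the range -0.05 to 1.02, 7 lay above and 3 below 0, and 0 were called in limma. The nearest on either side were Eif2b2, a subunit of a translation initiation factor (0.06 ± 0.04 SE), and Nek9, a mitotic kinase (-0.04 ± 0.08). The highest was Fos, an AP-1 subunit, with 1.02 ± 0.63 and overlapping groups.

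The profiles most like that of Mlh3 were found by the root mean square distance between log2 values centred on their mean over the 6 arrays, among 8359 other genes above background. They belonged to Pskh1, a protein kinase (distance 0.044), Rad1, a subunit of the checkpoint clamp that senses DNA damage (0.046), Tmem19 (0.050), Sfi1, a centrosomal protein (0.053), and Fbxw5, a subunit of ubiquitin ligases (0.053). Rad1 gave 168.9, 169.4 and 144.2 in arrays 1, 2 and 3 labelled Klf4-deficient, against 237.6, 209.6 and 211.7 in controls. The 5 genes differed by between -0.37 and -0.30 on the log2 scale, and likeness to Mlh3 selects for that. Among the other mismatch repair genes, the distance to Mlh3 was 0.241 for Msh6 (rank 4462 of 8359), 0.261 for Msh3 (rank 5273) and 0.347 for Pms2 (rank 7185).

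The direction of the Mlh3 difference was negative under all 17 other ways of processing the values, and its size ran from -0.49 with no normalization between arrays to -0.35 with an offset of 50. Leaving out 1 array at a time gave values between -0.42 and -0.39. Mlh3 was chosen for this difference and its deposited groups did not overlap, so the kept direction is no further support. The adjusted p from limma ran from 0.0628 (offset of 1) to 0.791 (replicate number as a block), so Mlh3 passed in 0 of the 17.

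**Figure D5:**
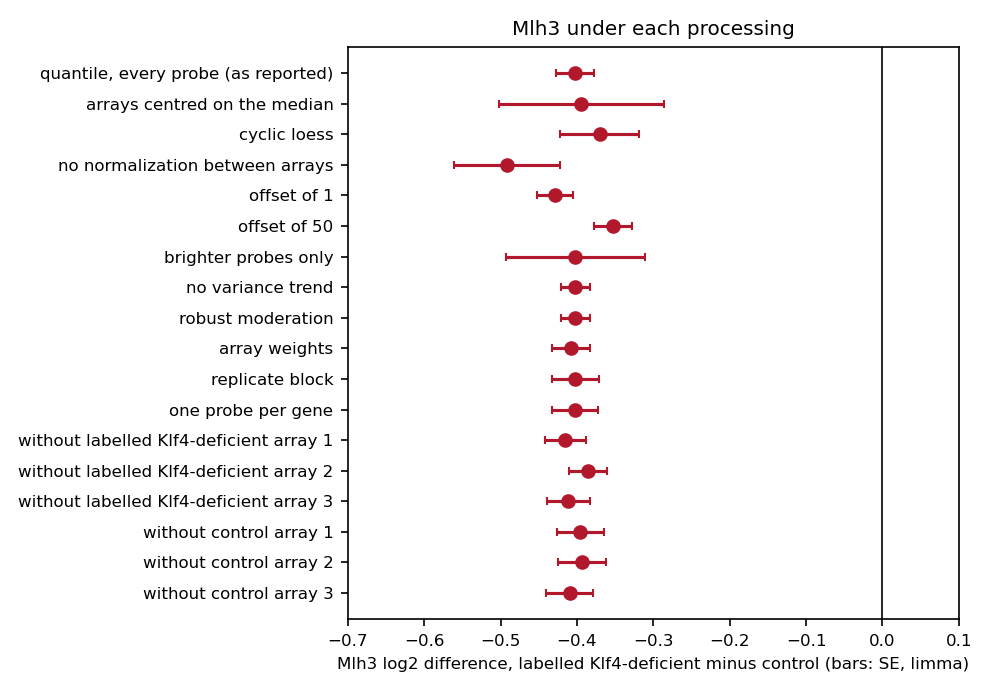
Log2 difference of Mlh3, labelled Klf4-deficient minus control, as reported (top) and under the 17 other settings, with its SE from limma as bars. All values lie between -0.49 and -0.35, while the SE varies from 0.019 to 0.108.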

How the data were processed

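The authors deposited linear probe intensity, one column per array. BeadStudio is named in the submitters' processing notes, without a version. Between 31.3% and 34.2% of the values of an array were below 0, as after subtraction of a background. The sources used here do not give the background method, any normalization between arrays or the genome build.

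Negative values were raised to 0, an offset of 16 was added, and the log2 of all 45281 probes was quantile normalized. Of these, 34885 carried 1 gene symbol in the platform annotation and were fitted, 18 with several and 10378 unnamed here were not. Differences are labelled Klf4-deficient minus control from lmFit and trended eBayes (limma 3.58.1, R 4.3.3), adjusted after Benjamini and Hochberg at a threshold of 0.05. Gene lists, neighbours and likeness used the probe with the highest mean for each of 19057 genes. The fit was also run on simulated data with independent noise and no shifts in cell content between arrays, and nothing here rests on that run.

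The background limit was 3 times the root mean square of the negative values of an array. The number of arrays limits the precision. No exact permutation test was used, since 3 against 3 arrays allow no two-sided p under 0.10. Members and lists were chosen with earlier results of these data known. Single cell type markers were named after their values were seen. Named were every member probe, MutS and MutL homologue and Klf4, up to 4 genes with the smallest unadjusted p per repair list, the 5 nearest genes on each side of Mlh3, and the 5 profiles most like it. Upstream windows and gene order came from RefSeq tables on GRCm38.p6, and the windows matched 5 of the 6 members. For these, genes on the opposite strand that start within 1000 bases were also looked up.

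Alternatives were centring on the median, cyclic loess, no normalization, offsets of 1 and 50, brighter probes only, no variance trend, robust moderation, array weights, a block for the replicate number, 1 probe per gene, and leaving out each array.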

Additional observations from a re-analysis of the deposited data

How the results depend on the processing

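Member probes past the threshold numbered 0 under all 17 alternatives, and Mlh3, chosen for its difference, stayed negative in each. Over the whole table, 1 probe passed as reported, 5 after centring each array on its median, 2 with no normalization, 2 with 1 probe per gene, and 0 with the replicate number as a block (replicate block), where Mlh3 had an adjusted p of 0.791. Leaving out 1 array gave between 11 and 32 probes, 12 of 13, 9 of 11 and 29 of 32 of them lower without control arrays 1, 2 and 3, and 28 of 31, 21 of 21 and 30 of 30 higher without arrays 1, 2 and 3 labelled Klf4-deficient. Each such count rests on fewer arrays. The labels do not say whether samples with the same replicate number are paired. Deviations from the group mean correlated at 0.157, -0.026 and -0.184 between same-numbered arrays 1, 2 and 3 over 15173 probes. Not every array correlated best with its own number. Such correlations cannot decide on pairing, since deviations within a group of 3 arrays depend on each other. Without array 3 labelled Klf4-deficient, Msh3 probe ILMN_2738726 stood at -0.29 and ILMN_3068452 at 0.003. Msh6 probe ILMN_2631098 lay below 0 in 2 of 17 alternatives, at -0.06 at the lowest, and Pms2 above 0 in all 17 (0.15 to 0.33). Signals near the background limit bound what Msh3, Msh5, Pms1 and Exo1 can show.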
